A study of Sus scrofa with 16 samples.

Results

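The striated muscle miRNAs form a small family of regulatory RNAs that is best known from heart and skeletal muscle. Of its members, 6 were listed in the small RNA count table of Large White sow ovaries: ssc-miR-1, ssc-miR-133a-5p, ssc-miR-133b, ssc-miR-206, ssc-miR-208b and ssc-miR-499-5p. They were taken by name, as every entry of the miR-1, miR-133, miR-206, miR-208 and miR-499 families among the 1940 miRNAs of the table, of which 216 were known pig miRNAs and 1724 were predicted from the reads. The main question addressed here was how these miRNAs differed between the luteal and the follicular ovary, and how they moved together from sow to sow.

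Ovaries of 16 unrelated Canadian Large White sows were sampled, 1 library per sow and 4 sows per group. The sows had a record of either high or low fecundity, judged by the number of piglets born, and their ovaries were taken on day 14 (luteal phase) or day 20 (follicular phase), with day 1 as the first day of estrus. The groups were LH (luteal, high fecundity), LL (luteal, low fecundity), FH (follicular, high fecundity) and FL (follicular, low fecundity). The study itself compared LH vs. LL and FH vs. FL, and the comparison between the phases was added here. All sows were multiparous animals of 1 breed kept under the same conditions, so no group was an untreated control for the others. The sources do not state whether the luteal and the follicular libraries were prepared together, so phase and preparation cannot be told apart.

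The muscle miRNAs are named for where they are abundant, and they act by lowering the output of the mRNAs they pair with. ssc-miR-1 and ssc-miR-206 share a seed, the stretch that selects targets, and are known for promoting muscle differentiation, ssc-miR-206 mostly in skeletal muscle. The miR-133 family is known for acting beside them on growth and contraction of muscle cells. ssc-miR-208b and ssc-miR-499-5p arise from introns of myosin heavy chain genes and are known from slow and cardiac muscle. The ovary holds no striated muscle of its own, but it does hold smooth muscle, in the walls of its vessels and in its stroma.

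Several genes of the family are neighbours. In the RefSeq annotation of the pig assembly Sscrofa11.1, MIR1 and MIR133A-1 were next to each other on chromosome 17, before SLCO4A1. MIR206 and MIR133B were next to each other on chromosome 7, between PKHD1 and IL17A. A further copy of the miR-133a gene, MIR133A-2, lay within MIB1 on chromosome 6. MIR208B lay within MYH7 and MIR499 within MYH7B, the myosin genes that host them. The authors mapped their reads to the older assembly Sscrofa10.2, so these positions serve only to show which genes are neighbours.

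Library totals ranged from 8998496 to 37194836 counts, and known miRNAs made up 97.08% to 99.22% of each. Levels are given as CPM, read counts scaled to a common library size, after TMM normalization, which rescales each library by the bulk of its miRNAs. The TMM factors ran from 1.188 to 1.742 in LL and from 0.6703 to 1.229 (FL4) in the other groups, so LL1, LL2 and LL3 were scaled down more than any library of another group. A floor of 3 counts was worth 0.101 to 0.339 CPM, counting error only. Of the ovarian somatic miRNAs fixed as tissue markers (ssc-miR-202-5p, ssc-miR-224, ssc-miR-383), the summed level was 1213 to 3873 CPM in luteal and 75.2 to 1306 CPM in follicular libraries. Nearly all of that sum was ssc-miR-202-5p (mean 1314 CPM, against 7.93 CPM for ssc-miR-224 and 0.811 CPM for ssc-miR-383). LH4, FL2 and FL4 stood apart by the sum of the epithelial miRNAs ssc-miR-34c, ssc-miR-182, ssc-miR-183, ssc-miR-205 and ssc-miR-429. It was 21828, 7510 and 16083 CPM there, against 145 to 1118 CPM in the other libraries. Over the 16 libraries most of that sum was ssc-miR-34c, at a mean of 2810 CPM, against 34.0 to 246 CPM for the others. The part of the epithelial miRNAs in the results was not tested. Values without LH4, FL2 or FL4 are given where a result turns on these libraries.

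ssc-miR-1 was the most abundant of the family, with a mean of 1520 CPM and rank 41 among the 216 known miRNAs. ssc-miR-133a-5p followed at 271 CPM (rank 92) and ssc-miR-499-5p at 88.5 CPM (rank 116). ssc-miR-133b was at 32.1 CPM (rank 148) and ssc-miR-206 at 12.5 CPM (rank 167). These 5 were counted in all 16 libraries, with the lowest single count 33, for ssc-miR-133b in LL2. ssc-miR-208b, at rank 208, was counted in 2 libraries only, with 30 counts in LH4 (1.35 CPM) and 55 counts in FL4 (3.11 CPM). It was at 0 in the other 14, was too sparse for the filter, and entered no test in the filtered table. The order describes reads rather than molecules, since small RNAs differ in how well adapters ligate to them. The first 5 ran over very different spans between sows: the highest library was 62.7 times the lowest for ssc-miR-133b, 38.7 times for ssc-miR-133a-5p, 12.8 times for ssc-miR-1, 11.8 times for ssc-miR-206 and 4.29 times for ssc-miR-499-5p.

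**Figure D1:**
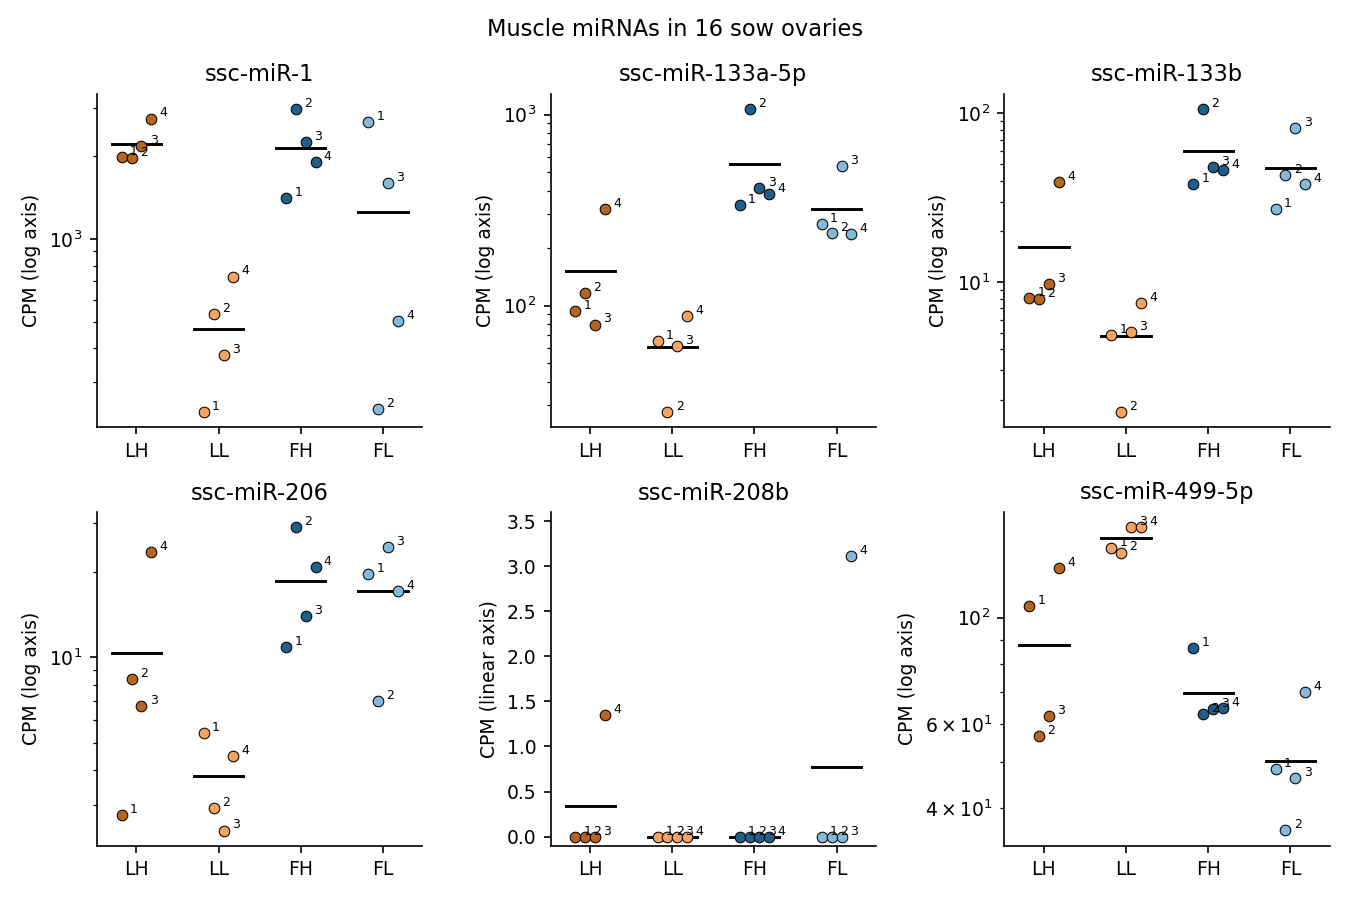
Level of each muscle miRNA in the 16 ovary libraries, in TMM-normalized CPM on a log axis (linear for ssc-miR-208b), by group (LH, LL luteal high and low fecundity; FH, FL follicular high and low fecundity). Points are sows with their replicate number and lines are group means (n = 4); ssc-miR-133a-5p and ssc-miR-133b are lower in the luteal groups, and the 4 LL sows are low in ssc-miR-1 and high in ssc-miR-499-5p.

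The luteal ovary held less of 3 of the 5 muscle miRNAs tested. ssc-miR-133a-5p fell 4.37-fold, ssc-miR-133b 6.04-fold and ssc-miR-206 2.84-fold relative to the follicular ovary, averaged over both fecundity groups. ssc-miR-499-5p went the other way and was 1.92-fold higher in the luteal ovary. ssc-miR-1, the most abundant member, was 1.61-fold lower, a difference within its spread between sows. A miRNA counted as called at the study's threshold, P below 0.05 before adjustment together with a log2 fold change of 1 or more in size, and calls by adjusted p under 0.05 are given separately. By the threshold 3 of 5 members were lower and 0 were higher, while 10.3% of all 445 miRNAs tested were called lower and 13.0% higher. By adjusted p 4 of 5 members passed, against 17.5% of all miRNAs. The median log2 fold change of the 5 members was −1.50, beside 0.17 for all miRNAs tested.

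ssc-miR-133b showed the largest phase difference of the members. The LH libraries held 8.09, 7.92, 9.78 and 39.2 CPM and the LL libraries 4.87, 1.70, 5.07 and 7.54 CPM. The FH libraries held 38.3, 107, 47.9 and 46.2 CPM and the FL libraries 27.1, 42.9, 82.0 and 38.4 CPM. Of the luteal sows, 7 lay below every follicular sow, and LH4 alone reached into the follicular range. The means were 10.5 ± 11.8 CPM in luteal and 53.7 ± 26.7 CPM in follicular libraries (SD, n = 8 each). The log2 fold change was −2.59 (SE 0.475, edgeR quasi-likelihood test, adjusted p = 0.00265), and an exact two-sided permutation test over the 16 sows gave p = 0.000622. Without LH4 the log2 fold change was −3.05, and without FH2, the highest library, it was −2.38.

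ssc-miR-133a-5p, its close relative, behaved alike. The LH libraries held 93.4, 117, 79.5 and 319 CPM and the LL libraries 65.2, 27.7, 61.5 and 88.2 CPM. The FH libraries held 335, 1073, 411 and 383 CPM and the FL libraries 267, 238, 538 and 237 CPM. Again LH4 was the 1 luteal sow above the lowest follicular one. The means were 106 ± 89.6 CPM in luteal and 435 ± 277 CPM in follicular libraries (SD, n = 8 each). The log2 fold change was −2.13 (SE 0.391, edgeR, adjusted p = 0.00265; exact permutation p = 0.000622). Without LH4 it was −2.46, and without FH2, the highest library, it was −1.87. The sources do not say how reads were assigned to arms or to closely related miRNAs, and some other entries named for opposite arms hold identical counts. Whether the arm named for ssc-miR-133a-5p and for ssc-miR-499-5p is the arm counted is therefore uncertain, as is how any reads shared with ssc-miR-133b were divided.

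ssc-miR-206 was lower in the luteal ovary with more overlap. The LH libraries held 2.76, 8.39, 6.73 and 23.6 CPM and the LL libraries 5.41, 2.94, 2.44 and 4.47 CPM. The FH libraries held 10.8, 28.9, 14.0 and 20.9 CPM and the FL libraries 19.7, 7.02, 24.5 and 17.2 CPM. LH4 lay among the highest follicular sows, and FL2 lay among the luteal sows. The means were 7.09 ± 6.98 CPM and 17.9 ± 7.18 CPM (SD, n = 8 each), with a log2 fold change of −1.50 (SE 0.463, edgeR, adjusted p = 0.0376; exact permutation p = 0.00482). The adjusted p was close to its limit: it ran from 0.0144 (without LH4) to 0.0922 (without FH2) when single libraries were left out, and it stayed under 0.05 only without LH4, FH1 or FL2.

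ssc-miR-499-5p was the only member that was higher in the luteal ovary. The LH libraries held 106, 56.7, 62.2 and 127 CPM and the LL libraries 140, 137, 154 and 154 CPM. The FH libraries held 86.5, 63.0, 64.4 and 64.8 CPM and the FL libraries 48.3, 36.0, 46.3 and 69.8 CPM. The LL sows lay above every other sow and close to each other, while LH2 and LH3 lay within the follicular range. The means were 117 ± 38.8 CPM in luteal and 59.9 ± 15.8 CPM in follicular libraries (SD, n = 8 each). The log2 fold change of 0.94 (SE 0.229, edgeR, adjusted p = 0.0146; exact permutation p = 0.0042) stayed just under the study's limit of 1.

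ssc-miR-1 overlapped widely between the phases. The LH libraries held 1993, 1965, 2176 and 2747 CPM and the LL libraries 234, 530, 379 and 729 CPM. The FH libraries held 1412, 2984, 2254 and 1907 CPM and the FL libraries 2672, 240, 1598 and 503 CPM. The LH and FH sows overlapped, the LL sows lay far below them, and FL held sows of each kind. The means were 1344 ± 976 CPM in luteal and 1696 ± 971 CPM in follicular libraries (SD, n = 8 each), with a log2 fold change of −0.68 (SE 0.404, edgeR, adjusted p = 0.244; exact permutation p = 0.511). With the share of clean reads as a covariate it was at −0.90 and passed the adjusted p (edgeR, adjusted p = 0.0177), as it did in LL vs. FL (edgeR, adjusted p = 0.0112).

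No member separated all 8 luteal from all 8 follicular sows, and 1.80% of all miRNAs tested did. The scaling bears on the size of these differences. With library totals alone in place of TMM, the median log2 fold change of all miRNAs rose from 0.17 to 0.55 and the called miRNAs shifted from 55.8% higher to 77.4% higher. On that scale ssc-miR-133a-5p was at −1.65, ssc-miR-133b at −2.15, ssc-miR-206 at −1.02 (edgeR, adjusted p = 0.139), ssc-miR-1 at −0.17 and ssc-miR-499-5p at 1.34, so every direction held.

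**Figure D2:**
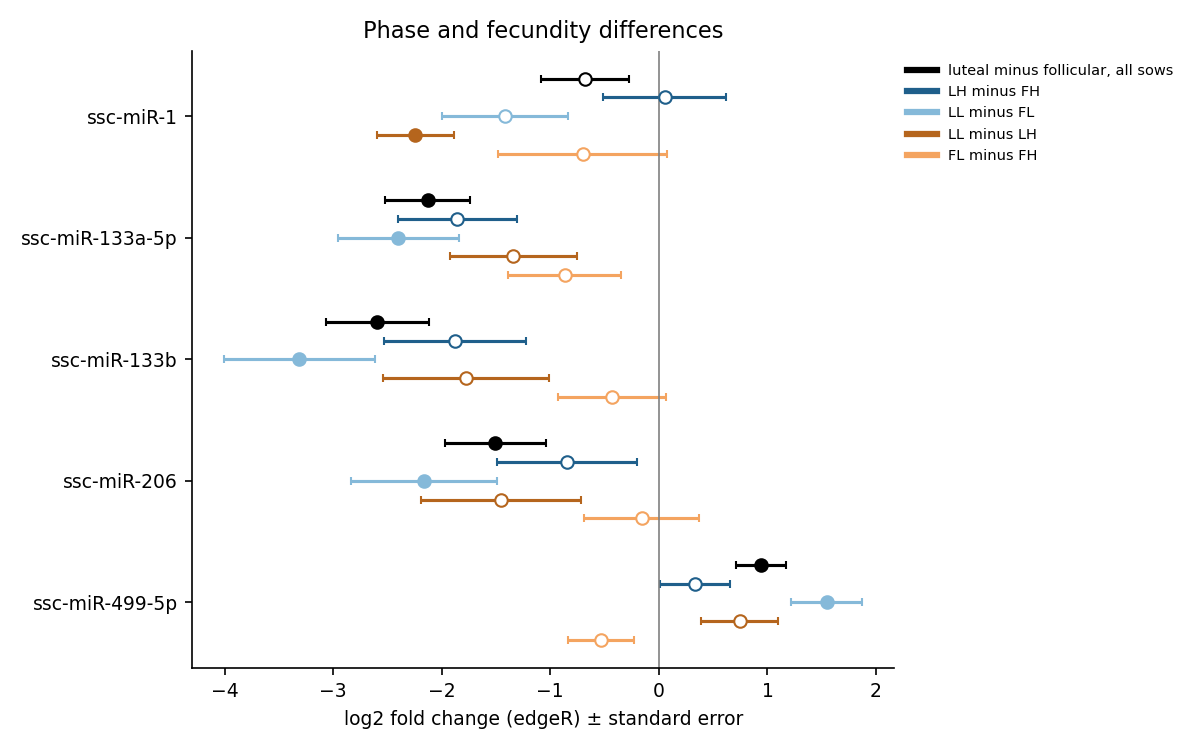
Log2 fold changes (x axis, edgeR) of the 5 muscle miRNAs tested, with standard errors, for the phase comparisons (luteal minus follicular) and the fecundity comparisons (low minus high). Filled points passed an adjusted p under 0.05; the phase differences of ssc-miR-133a-5p, ssc-miR-133b and ssc-miR-206 lie to the left of 0 and that of ssc-miR-499-5p to the right.

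The phase difference was then taken within each fecundity group. These comparisons use the same libraries as the one over all sows and as the fecundity comparisons, so they are not independent of them. Among low fecundity sows (LL vs. FL), all 5 members passed the threshold, 4 lower and 1 higher in luteal sows, against 16.4% called lower and 13.7% called higher of 445 miRNAs. ssc-miR-133b was 9.91-fold lower in LL (log2 fold change −3.31, SE 0.693, edgeR, adjusted p = 0.00858), ssc-miR-133a-5p 5.28-fold lower (−2.40, SE 0.559, edgeR, adjusted p = 0.0124) and ssc-miR-206 4.48-fold lower (−2.16, SE 0.669, edgeR, adjusted p = 0.0439). ssc-miR-499-5p was 2.92-fold higher in LL (1.55, SE 0.328, edgeR, adjusted p = 0.00858). These 4 passed the adjusted p, as did 15.5% of all miRNAs. The LL and FL sows did not overlap for the same 4, where 22.9% of all miRNAs did not overlap, and the exact permutation p was 0.0286 for each, the smallest that 4 against 4 sows can give. For ssc-miR-206 the adjusted p ran up to 0.132 (without LL2) and stayed under 0.05 only without LH1, LH4 or FL2. ssc-miR-1 was 2.68-fold lower in LL by the threshold (−1.42, SE 0.580, edgeR, adjusted p = 0.107). That call was lost without LL1 (log2 fold change −1.30), LL3 (−1.41) or FL1 (−0.72), and the FL sows overlapped the LL sows (exact permutation p = 0.343). Without FL2 or FL4, the FL sows low in ssc-miR-1, the log2 fold change was −1.89 or −1.82. With library totals alone the called miRNAs of LL vs. FL shifted from 45.5% to 64.2% higher in LL, and ssc-miR-1 was at −0.67 and lost its call.

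Among high fecundity sows (LH vs. FH), the miR-133 pair was lower in the luteal ovary and no other member passed. ssc-miR-133a-5p had a log2 fold change of −1.86 (SE 0.548, edgeR, adjusted p = 0.175) and ssc-miR-133b of −1.88 (SE 0.655, edgeR, adjusted p = 0.224). The 2 members called lower stand beside 4.27% of all miRNAs called lower, and 8.54% were called higher. ssc-miR-206 was at −0.85 (SE 0.646, edgeR, adjusted p = 0.580), ssc-miR-499-5p at 0.33 (SE 0.321, edgeR, adjusted p = 0.715) and ssc-miR-1 at 0.05 (SE 0.569, edgeR, adjusted p = 1). By adjusted p edgeR called 0 members and 0% of all miRNAs, with 70 miRNAs at an unadjusted P under 0.05, whereas DESeq2 called 39 miRNAs, both miR-133 members among them. LH and FH sows did not overlap for ssc-miR-133a-5p (exact permutation p = 0.0286), as for 8.99% of all miRNAs. With LH4 left out, ssc-miR-133b was at −2.80, ssc-miR-133a-5p at −2.50 and ssc-miR-206 at −1.62, which then passed the threshold. With FH2 left out, the values shrank to −1.45 for ssc-miR-133b, −1.31 for ssc-miR-133a-5p and −0.56 for ssc-miR-206. The miR-133 pair still passed the threshold there.

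In the luteal ovary, ssc-miR-1 was the member that differed most between the fecundity groups. It was 4.73-fold lower in LL than in LH, at 468 ± 212 CPM against 2220 ± 363 CPM (SD, n = 4 each), with no overlap between the groups (log2 fold change −2.24, SE 0.359, edgeR, adjusted p = 0.0413). This was 1 of 3 miRNAs past the adjusted p, or 0.829% of the 362 tested in luteal sows. The adjusted p ran from 0.0486 (without LH1) to 0.202 (without LL3) with 1 library left out, and it was above 0.05 in every such fit other than the one without LH1. It was also above 0.05, at 0.0555 to 0.283, with identical entries collapsed, no filter, a block for the replicate number, or parity or the share of clean reads as a covariate. The log2 fold change was between −2.58 and −2.07 with 1 library left out, −3.04 with parity and −1.73 with the share of clean reads as a covariate. By the threshold 2 members were lower in LL and 0 were higher, beside 6.35% and 6.63% of all miRNAs. The second was ssc-miR-133b (−1.77, SE 0.767, edgeR, adjusted p = 0.275), at 4.79 ± 2.39 CPM in LL against 16.2 ± 15.3 CPM in LH. Its call was lost without LH4 (log2 fold change −0.85) and without LL1, LL2, LL3 or LL4 (−1.79, −1.51, −1.86 and −2.09). ssc-miR-133a-5p was at −1.34 (SE 0.585, edgeR, adjusted p = 0.280), ssc-miR-206 at −1.45 (SE 0.738, edgeR, adjusted p = 0.353) and ssc-miR-499-5p at 0.74 (SE 0.355, edgeR, adjusted p = 0.320). Without LH4 the values of ssc-miR-133a-5p and ssc-miR-206 shrank to −0.68 and −0.66.

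No overlap between LH and LL was seen for ssc-miR-1, ssc-miR-133b and ssc-miR-499-5p (exact permutation p = 0.0286 each), as for 13.3% of all miRNAs. With library totals alone the LL libraries were not scaled down, and the median of all miRNAs in this comparison rose from 0.15 to 0.73. The called miRNAs then went from 51.1% to 83.8% higher in LL. On that scale ssc-miR-1 stayed lower in LL (−1.69, edgeR, adjusted p = 0.0387), ssc-miR-133b was at −1.13 and no longer past the threshold (edgeR, adjusted p = 0.403) and ssc-miR-499-5p rose past the threshold (1.35).

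In the follicular ovary no member passed the threshold between FH and FL. In the fit of all 8 libraries the log2 fold changes were below 0: ssc-miR-133a-5p was at −0.87 (SE 0.520), ssc-miR-1 at −0.70 (SE 0.776), ssc-miR-499-5p at −0.53 (SE 0.304), ssc-miR-133b at −0.43 (SE 0.498) and ssc-miR-206 at −0.16 (SE 0.529). Adjusted p ran from 0.701 to 0.915 (edgeR), with 0 of 5 members under 0.05 before adjustment. The signs of 4 members were not stable. With parity as a covariate ssc-miR-206 was at 0.43, ssc-miR-133b at 0.34, ssc-miR-1 at 0.22 and ssc-miR-133a-5p at 0.14. ssc-miR-206 also turned with library totals (0.15), with the share of clean reads (0.25) and without FH2 (0.25) or FL2 (0.10), ssc-miR-1 with the share of clean reads (0.02) and ssc-miR-133b without FH2 (0.14). Of the 307 miRNAs tested 5.54% were called higher in FL, 0.651% were called lower and 0.651% passed the adjusted p, while FH and FL did not overlap for 2.25% of the 445 miRNAs set side by side and for 0 members. DESeq2 likewise called 0 of the 5. The wide spread of ssc-miR-1 in FL, 1253 ± 1114 CPM (SD, n = 4), came from 2 high and 2 low sows. The low sows were FL2 and FL4, the follicular sows with the high sums of epithelial miRNAs. LH4, which had the highest sum of epithelial miRNAs, was the highest luteal sow for ssc-miR-1, and whether these miRNAs bear on ssc-miR-1 was not tested.

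Whether the fecundity difference itself changed with the phase was tested by an interaction. ssc-miR-499-5p passed the threshold: it was higher in LL than LH and lower in FL than FH, a difference of 1.21 between the log2 fold changes (SE 0.456, edgeR, adjusted p = 0.230). The other members were at −1.47 (SE 0.808, edgeR, adjusted p = 0.410) for ssc-miR-1, −1.43 (SE 0.900, edgeR, adjusted p = 0.487) for ssc-miR-133b, −1.32 (SE 0.910, edgeR, adjusted p = 0.555) for ssc-miR-206 and −0.54 (SE 0.751, edgeR, adjusted p = 0.846) for ssc-miR-133a-5p. The 1 member called higher compares with 4.04% of all miRNAs, and 9.21% were called lower. No miRNA passed the adjusted p in edgeR (0%, with 63 at an unadjusted P under 0.05), whereas DESeq2 called 58, among them ssc-miR-499-5p (adjusted p = 0.0116). Without FL2 or FL4 ssc-miR-1 was at −1.93 or −1.84 and passed the threshold. Without LH4 the values of ssc-miR-133b and ssc-miR-206 shrank to −0.51 and −0.59, and that of ssc-miR-133a-5p turned to 0.08. With library totals alone the called miRNAs of the interaction shifted from 30.5% to 47.3% higher, and ssc-miR-499-5p was at 1.52. With all libraries, the large luteal difference in ssc-miR-1 was therefore not shown to differ from the follicular one.

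In bulk tissue, fewer cells of a type and less RNA per cell cannot be told apart, so the levels of smooth muscle miRNAs were set beside the members. ssc-miR-143-3p, ssc-miR-143-5p, ssc-miR-145-5p and ssc-miR-490-5p are known from smooth muscle, and the entries of the miR-143 arms hold identical counts. By the threshold 3 of these 4 entries, or 2 of 3 separate measurements, were lower in the luteal ovary and 0 were higher, beside 10.3% and 13.0% of all miRNAs. ssc-miR-145-5p was at a log2 fold change of −1.89 (SE 0.294, edgeR, adjusted p = 0.00222), both miR-143 entries were at −1.12 (SE 0.198, edgeR, adjusted p = 0.00222), and ssc-miR-490-5p was at −0.66 (edgeR, adjusted p = 0.351). With the miR-143 counts entered once, their summed level was 111496 to 212855 CPM in LH and 71965 to 91159 CPM in LL. It was 232353 to 444657 CPM in FH and 170481 to 310993 CPM in FL, and none of the 4 was at 0 in any group. The highest luteal library of the list was LH4 and the highest of all was FH2, which also led ssc-miR-133a-5p and ssc-miR-133b in their groups. In LL vs. FL ssc-miR-145-5p and both miR-143 entries were called lower, beside 16.4% of all miRNAs, and in LH vs. FH ssc-miR-145-5p was, beside 4.27%. In LH vs. LL ssc-miR-490-5p, at a mean of 17.3 CPM, was called higher in LL, beside 6.63%. The miR-143 entries (−0.94, edgeR, adjusted p = 0.170) and ssc-miR-145-5p (−0.83, edgeR, adjusted p = 0.253) were lower in LL and not called. In FH vs. FL 0 moved.

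A longer list of 19 miRNAs known from muscle precursor cells but expressed in many tissues was also compared. It held ssc-miR-26a, ssc-miR-199a-5p, ssc-miR-125b and ssc-miR-29a among others. By the threshold, over both fecundity groups, its calls in each direction lay at about the share of all miRNAs. Of 17 tested, 2 were lower in the luteal ovary (ssc-miR-29b and ssc-miR-497) and 2 were higher (ssc-miR-221-3p and ssc-miR-222), beside 10.3% and 13.0% of all miRNAs. By adjusted p 5 were lower and 3 higher, where 17.5% of all miRNAs passed in either direction. The median log2 fold change was −0.74, against 0.17 for all miRNAs. The 4 most abundant of the list were at −0.94 (ssc-miR-26a), −0.50 (ssc-miR-199a-5p), −0.94 (ssc-miR-125b) and −0.75 (ssc-miR-29a), and none of these passed the threshold. In LL vs. FL 8 were lower and 2 higher, beside 16.4% and 13.7% of all miRNAs. In LH vs. FH 1 was lower and 1 higher, beside 4.27% and 8.54%. In LH vs. LL 2 were lower in LL, beside 6.35%, and in FH vs. FL 0 passed.

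The co-variation of the members was taken within groups, by subtracting each group's mean from log2(CPM + 1), so that the group differences above do not enter. ssc-miR-133a-5p and ssc-miR-133b rose and fell together most closely (Pearson r = 0.940, permutation adjusted p = 0.0127 over 10 pairs; Spearman rho = 0.791, adjusted p = 0.0478; n = 16). The r was 0.922 without LL2 and FH2, the libraries farthest from the median, 0.954 among luteal and 0.921 among follicular sows. How any reads shared by these entries were divided is uncertain, and the part of such reads in this r was not tested. ssc-miR-133a-5p and ssc-miR-206 followed (r = 0.731, permutation adjusted p = 0.0332; rho = 0.691, adjusted p = 0.0478), with r = 0.744 without LL2 and FH2, 0.750 in luteal and 0.704 in follicular sows. ssc-miR-133b and ssc-miR-206, whose genes are neighbours, gave r = 0.668 (permutation adjusted p = 0.0739; rho = 0.515, adjusted p = 0.174), 0.760 in luteal and 0.511 in follicular sows.

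ssc-miR-1 was more loosely tied to the rest. Its r with ssc-miR-206, which shares its seed, was 0.487 (permutation adjusted p = 0.0739; rho = 0.535, adjusted p = 0.136), at 0.160 in luteal and 0.770 in follicular sows. With ssc-miR-133a-5p, whose gene copy MIR133A-1 is its neighbour, r was 0.344 (permutation adjusted p = 0.308), and with ssc-miR-133b it was 0.171 (permutation adjusted p = 0.696). ssc-miR-499-5p gave r from 0.095 to 0.291 with the other 4 (permutation adjusted p from 0.696 to 0.839). Its r with ssc-miR-133a-5p and ssc-miR-133b was 0.584 and 0.636 in luteal sows but −0.280 and −0.314 in follicular sows, a difference that was not tested. For scale, the 19900 pairs of 200 known miRNAs gave a median r of 0.0509, with the middle 90% between −0.586 and 0.671, and the 10 pairs of members a median of 0.318. All such values share libraries, depth and scaling.

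**Figure D3:**
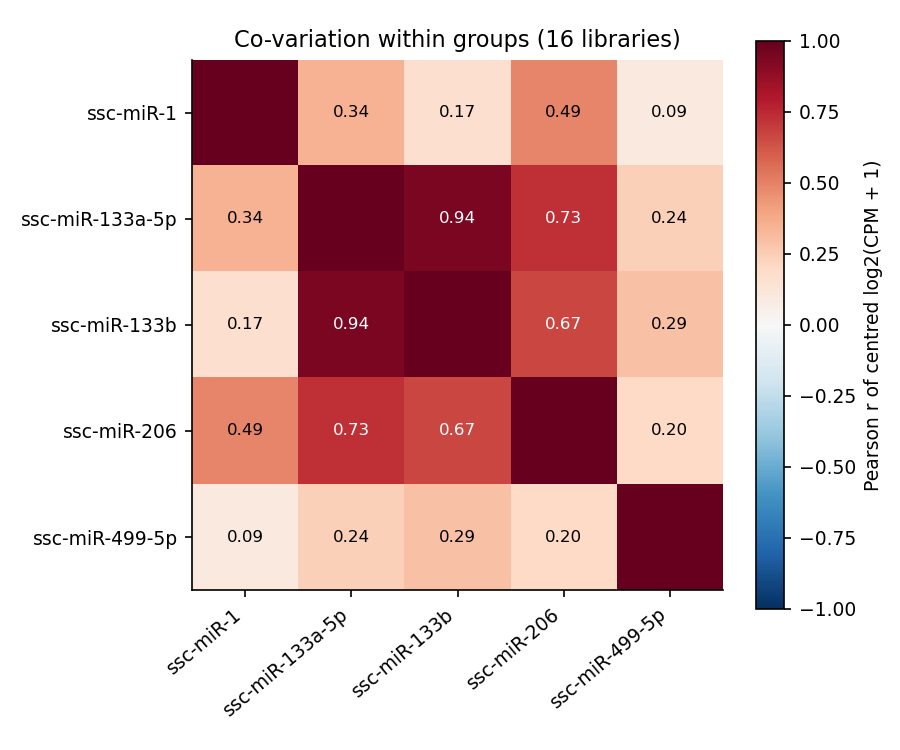
Pearson r between the muscle miRNAs over 16 libraries, from log2(CPM + 1) with group means removed; both axes list the 5 members tested and the colour gives r from −1 to 1. ssc-miR-133a-5p with ssc-miR-133b (0.94) and with ssc-miR-206 (0.73) are the strongest pairs, and ssc-miR-499-5p has the palest row.

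Among the other 195 known miRNAs, those most like each member were the following, as a description over the same 16 libraries and the same centred levels. For ssc-miR-133b they were ssc-miR-23a (r = 0.871), ssc-miR-145-5p (0.776) and ssc-miR-150 (0.702). For ssc-miR-133a-5p they were the near-identical entries ssc-miR-24-1-5p and ssc-miR-24-2-5p (0.812 each) and ssc-miR-23a (0.801). ssc-miR-206 was most like the miR-143 entries (0.775 each) and ssc-miR-29b (0.754). The smooth muscle miRNAs thus stood among the closest to ssc-miR-133b and ssc-miR-206. ssc-miR-1 was most like ssc-let-7g (0.869), ssc-miR-95 (0.863) and ssc-miR-27b-5p (0.847), and ssc-miR-499-5p was most like ssc-miR-32 (0.686) and the entries of ssc-miR-221-5p and ssc-miR-221-3p (0.667 each). The summed level of the smooth muscle miRNAs, with the miR-143 counts entered once, gave r = 0.798 with ssc-miR-133a-5p, 0.791 with ssc-miR-206, 0.746 with ssc-miR-133b, 0.643 with ssc-miR-1 and 0.0634 with ssc-miR-499-5p. Most of that sum was miR-143 (mean 167671 CPM, against 23452 CPM for ssc-miR-145-5p and 17.3 CPM for ssc-miR-490-5p). For ssc-miR-1 other lists were as close, with r = 0.679 for the endothelial miRNA, 0.648 for the leukocyte and 0.641 for the muscle precursor list. For the miR-133 pair and ssc-miR-206 the r with the other cell type lists ran from −0.445 (ovarian somatic, ssc-miR-133b) to 0.484 (neural, ssc-miR-206).

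Ratios of counts between members within 1 library do not depend on how libraries are scaled. They were chosen after the levels had been seen and are given without a test. The ratio of ssc-miR-499-5p to ssc-miR-133a-5p was 1.13, 0.487, 0.783 and 0.398 in LH and 2.14, 4.93, 2.51 and 1.75 in LL. It was 0.258, 0.0587, 0.157 and 0.169 in FH and 0.181, 0.151, 0.0861 and 0.294 in FL. Every luteal sow lay above every follicular sow, LH4 included, and the geometric means differed 8.55-fold. This ratio sets the member seen higher in the luteal ovary over one seen lower, so a wide separation follows from the choice. How many other pairs of miRNAs separate the phases was not tested. The ratio of ssc-miR-1 to ssc-miR-133a-5p had geometric means of 17.1 (LH), 7.70 (LL), 4.23 (FH) and 2.82 (FL), with overlap between the phases. The ratio of ssc-miR-206 to ssc-miR-133b, from neighbouring genes, was 0.622, 0.861, 0.317 and 0.355 in the same order. That of ssc-miR-133a-5p to ssc-miR-133b varied least, between 5.56 and 16.3 over all sows, with geometric means of 11.7 in luteal and 7.81 in follicular sows.

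**Figure D4:**
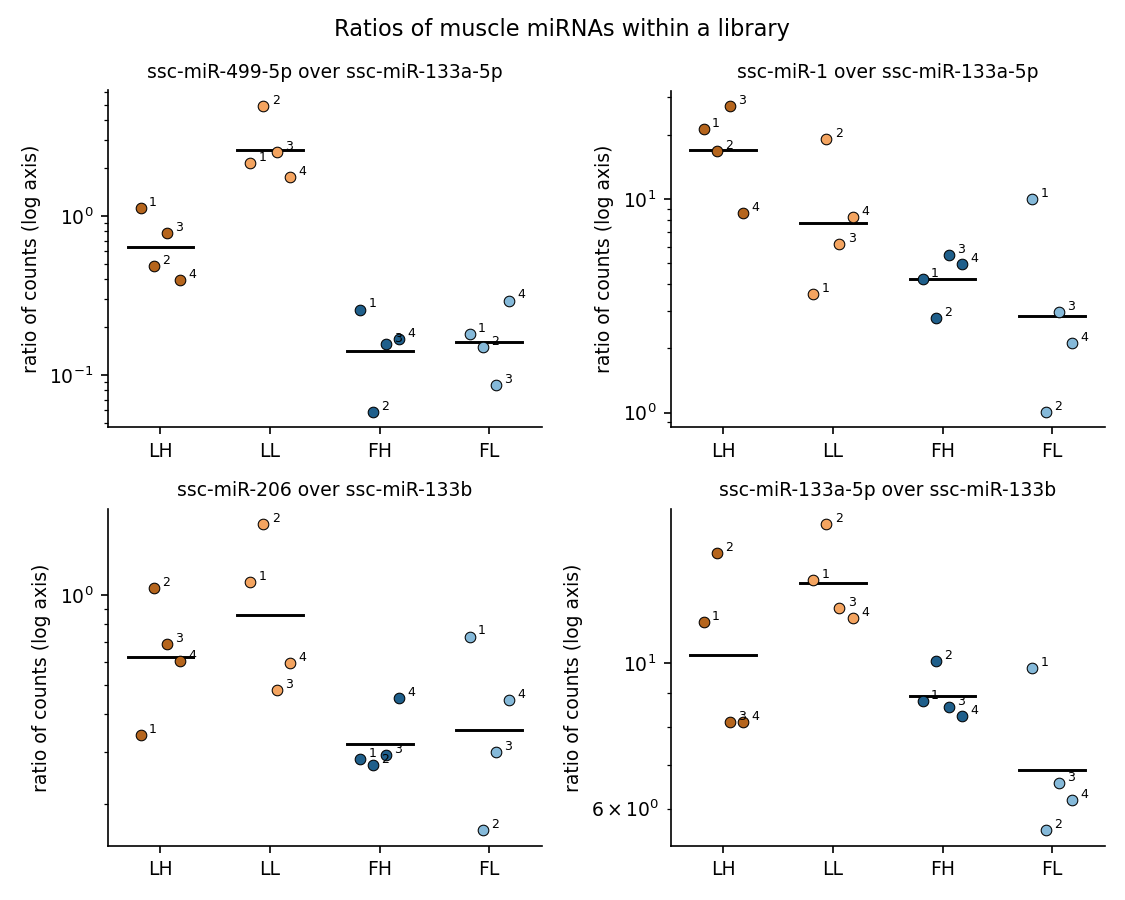
Ratios of counts of muscle miRNAs within each library, on log axes, by group (LH, LL, FH, FL); points are sows with their replicate number and lines are geometric means (n = 4). The ratio of ssc-miR-499-5p to ssc-miR-133a-5p lies between 0.398 and 4.93 in the luteal groups and between 0.0587 and 0.294 in the follicular groups, with no overlap. It was chosen after the levels had been seen.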

How the data were processed

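The authors made 1 small RNA library per sow ovary, trimmed the reads, mapped them to Sscrofa10.2 with Bowtie2 2.1.0 and predicted further miRNAs from the reads left unmapped. The deposited table holds raw read counts per miRNA. How reads were assigned to arms or to near-identical miRNAs is not given in the sources used here, and 935 of 1940 entries hold the same counts as another entry, none of them a member. Counts were tested with edgeR 4.0.16 (R 4.3.3; TMM, quasi-likelihood; filterByExpr, minimum count 10, minimum total 15). The phase contrasts and the interaction came from 1 fit of all 16 libraries, and LH vs. LL and FH vs. FL from fits of their 8 libraries. Standard errors are the log2 fold change divided by the root of F, and adjusted p-values are Benjamini-Hochberg over all miRNAs tested. Single levels, log2(CPM + 1), were tested by exact two-sided permutation of sows (12870 splits for 8 against 8, 70 for 4 against 4). Correlations used 100000 shuffles within groups. DESeq2 1.42.0 and other settings served as alternatives. The scripts were tested on simulated data.

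The members, the comparison of phases and the other lists were chosen with earlier results of these data known. All 6 members are named, with the 3 known miRNAs most correlated with each member and at most 4 of each list. Mature sequences of the members were not used here. Replicates are separate sows.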

Additional observations from a re-analysis of the deposited data

Results flagged for a closer look

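Single sows stood apart from the other 3 of their group by Dixon's test on CPM in 6 of 20 groups of the 5 members tested. The nominal rate of about 1 in 20 assumes normally distributed values and separate groups, so the count is given as a description. The test was applied to the members only, so whether other miRNAs are flagged as often is not known here. CPM values are skewed, and ssc-miR-133a-5p and ssc-miR-133b, which rose and fell together, were flagged in the same sows LH4 and FH2. ssc-miR-208b adds 2 groups in which the other 3 sows were at 0, so that any count stands apart. LH4 was at 318.5 CPM for ssc-miR-133a-5p (next 117) and at 39.2 CPM for ssc-miR-133b (next 9.78), and it was the only LH sow with ssc-miR-208b, at 1.35 CPM. FH2 was at 1073 CPM for ssc-miR-133a-5p (next 411) and at 107 CPM for ssc-miR-133b (next 47.9). FL3 was at 538 CPM for ssc-miR-133a-5p (next 267). FL4 was the only FL sow with ssc-miR-208b, at 3.11 CPM. FH1 was at 86.5 CPM for ssc-miR-499-5p (next 64.8).

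LH4 and FL4, the 2 libraries with ssc-miR-208b, were also the 2 with the highest sums of epithelial miRNAs (21828 and 16083 CPM). The cause was not tested.

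The fecundity difference of ssc-miR-499-5p differed between the phases by 1.21 on the log2 scale (edgeR, adjusted p = 0.230). In DESeq2 the adjusted p was 0.0116, and the difference stayed between 1.05 and 1.42 with any 1 library left out.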

How the results depend on the processing

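No called difference of a member changed sign under any setting tried. The number of members past the threshold between the phases (3) was 2 to 4 under DESeq2, library totals, no filter, collapsed entries, parity and read quality, and 3 to 4 with any 1 library left out. For LH vs. LL (2) it was 4 in DESeq2, where ssc-miR-206 (−1.44) and ssc-miR-133a-5p (−1.34) also passed, and 1 with no filter or with the share of clean reads as a covariate. With parity it was 3, with ssc-miR-133b at −4.15, ssc-miR-133a-5p at −2.88, now past the threshold, and ssc-miR-1 at −3.04, while ssc-miR-206 was at −2.42. The adjusted p of these members ran from 0.283 to 0.529 with parity (edgeR), so the larger values passed no adjusted p. For LH vs. FH (2) it was 1 with no filter, and for the interaction (1) it was 2 with the share of clean reads, which added ssc-miR-1 (−1.15). Leaving out 1 library gave 2 to 3 (LH vs. FH), 4 to 5 (LL vs. FL), 1 to 4 (LH vs. LL), 0 (FH vs. FL) and 1 to 2 (interaction). By exact permutation the counts were 4 (luteal vs. follicular), 0 to 3 (LH vs. FH), 3 to 4 (LL vs. FL), 1 to 3 (LH vs. LL) and 0 to 1 (FH vs. FL). The permutation test was run on the members only, so these counts have no share of all miRNAs to stand beside. With library totals the permutation count for LH vs. FH was 0 (from 1), and 1 pair of members (from 2) kept an adjusted p under 0.05, ssc-miR-133a-5p with ssc-miR-206 falling to r = 0.665. With no filter ssc-miR-206 lost its calls between the phases (−1.52) and in LL vs. FL (−2.19), ssc-miR-499-5p lost those in LL vs. FL (1.57) and in the interaction (1.21), and ssc-miR-208b, whose counts lie in LH4 and FL4 alone, was called in LL vs. FL (−6.81) and in the interaction.

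The replicate numbers of the labels were checked as a block. They do not pair the sows: of 24 same-numbered pairs of libraries 9 had r over 0.1 (−0.448 to 0.412), and the same number correlated best in 8. With the block the phase count was 3 and the LL vs. FL count 4, without ssc-miR-1 (−1.34). The LH vs. LL count was 1, without ssc-miR-133b (−1.54). By adjusted p (edgeR) the block ended the calls of ssc-miR-206 between the phases (0.0550) and in LL vs. FL (0.0855) and that of ssc-miR-1 in LH vs. LL (0.222).

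Over all miRNAs, the calls rose with no filter from 104 to 203 between the phases, 57 to 154 (LH vs. FH), 134 to 250 (LL vs. FL), 47 to 158 (LH vs. LL), 19 to 93 (FH vs. FL) and 59 to 122 (interaction). The number tested rose too, from 445 to 1940 in the fit of 16 libraries. It rose from 362 to 1418 in LH vs. LL and from 307 to 1200 in FH vs. FL, so these counts do not share a base. In FH vs. FL the calls fell to 4 with the block, 5 with parity and 6 with the share of clean reads, and in LH vs. LL to 14 with the share of clean reads. The block left 39 in the interaction. Single libraries moved the calls to 94 of 418 tested (without LH1) or 71 of 401 (without LL4) in LH vs. LL. In FH vs. FL they moved them to 43 (without FL1), 30 (without FL3) or 11 (without FL4). The causes were not tested. ssc-miR-208b, at 0 in 14 libraries, had too few counts for the filtered fits.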

Other observations

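The other cell type lists fixed as markers moved between the phases as follows, by the threshold. Of all miRNAs 10.3% were called lower in the luteal ovary and 13.0% higher. Of 4 leukocyte miRNAs 2 were lower in the luteal ovary (ssc-miR-142-5p and ssc-miR-150). ssc-miR-142-5p was at −14.7 in LH vs. FH but at −0.47 in LL vs. FL, so its phase call rests on LH. There 1 of the 4 leukocyte miRNAs was at 0 in all libraries. Of 3 ovarian somatic miRNAs 2 were higher (ssc-miR-202-5p at 2.02 and ssc-miR-224 at 1.24 on the log2 scale). The other, ssc-miR-383, at a mean of 0.811 CPM, was at −2.06 and did not pass. Of 5 epithelial miRNAs 2 were higher (ssc-miR-182 and ssc-miR-183) and 1 was lower (ssc-miR-205). The liver miRNA ssc-miR-122 was at −2.28 (edgeR, adjusted p = 0.120), with 1363 CPM in FL2. No erythrocyte (of 2), endothelial (of 1) or tested neural (of 2) miRNA passed.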
